A study of Mus musculus with 6 samples.

Results

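Potassium channel genes were examined in RNA sequencing of mouse neural stem cells. They were taken as the protein-coding genes of the deposited count table whose symbol starts with Kcn, a subfamily letter or letters and a number, with Kcnj10 left out, which gave 84 of 27372 genes. The cells came from mice at postnatal day 7 and were cultured as spheres in DMEM/F12 medium for both groups alike, with B27 (2%), BSA (0.2%) and the growth factors EGF and bFGF at 20 ng/ml, which keep progenitors dividing. RNA was taken on day 7 of culture. There were 3 control libraries of wild-type genotype and 3 libraries labelled Sirt6 knockout, Sirt6 being a chromatin enzyme that removes acyl groups from histones. The series' design text calls these animals conditional knockouts; the sources used here do not name the Cre line, and it is not stated whether replicates are different animals or cultures. The p-values therefore rest on the variation among these 6 samples, part of which may be technical.

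Potassium channels let potassium leave or enter a cell along its gradient and so set the resting potential and the shape of electrical signals. Voltage-gated channels open on depolarisation, inward rectifiers and tandem-pore channels hold the membrane near rest, and a further group opens on calcium or sodium inside the cell. Auxiliary subunits bind the pore-forming subunits and change their gating or their delivery to the membrane. In the neural lineage, glia are known for a large resting potassium conductance and neurons for a wide set of voltage-gated channels, and progenitors express both kinds.

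Sirt6 itself was not lower in the labelled-knockout libraries. Its level was 21.9, 15.8 and 14.9 CPM (reads per gene after scaling every library to the same size with TMM factors) in control replicates 1 to 3 and 25.6, 29.4 and 25.3 CPM in the labelled-knockout libraries 1 to 3. All 3 of the latter lay above all 3 controls, with a log2 fold change of 0.61 ± 0.19 (SE), unadjusted p = 0.0146 and adjusted p = 0.998 by edgeR's quasi-likelihood test. Directions below are therefore those of the labels, not of a measured loss of Sirt6.

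Library totals ran from 17198852 to 18297275 counts, and 3 counts stood for 0.162 to 0.179 CPM. Summed markers of neural stem cells, the labelled cell type, were 7177 to 9941 CPM in controls and 7619 to 9807 CPM in the labelled-knockout libraries. Neuroblast markers summed to 250.5 to 334 CPM in controls and 371 to 581 CPM in the labelled-knockout libraries, and mature neuron markers to 35.7 to 55.2 and 21.9 to 47.6 CPM. Summed markers of microglia stayed at 0.114 to 0.269 and 0.162 to 0.516 CPM, and those of mural and endothelial cells at 0.808 to 1.54 and 1.09 to 2.09 CPM. The summed level of 4 Y-linked genes was 67.5, 234 and 0 CPM in controls and 0.755, 0.12 and 0 CPM in the labelled-knockout libraries. Control replicates 1 and 2 alone held Y-linked reads in number, so the sex of the cells was not balanced between the groups. Later fits with a Y-linked covariate, or against control replicate 3 alone, address that imbalance in part.

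The 84 potassium channel genes spanned the whole range from abundant to barely detected. A mean of at least 100 CPM was reached by 6 of them, 18 lay between 10 and 100 CPM, 27 between 1 and 10 CPM, and 33 below 1 CPM. Their summed level was 2538, 2357 and 2701 CPM in controls and 2420, 2166 and 2067 CPM in the labelled-knockout libraries, and the 7 most abundant genes made up 72.5% to 77.2% of it. By family there were 38 voltage-gated pore-forming subunits, 13 inward rectifiers, 13 tandem-pore channels, 8 calcium- or sodium-activated channels and 12 auxiliary subunits.

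Compared per length of exon, so that genes can be set beside each other, the auxiliary subunit gene Kcnip3 stood first. Kcnip3 encodes a calcium-binding protein of the family that assembles with the Kcnd channels and is also known as a transcriptional repressor. It had 110.8 ± 21.5 CPM per kb (SD over all 6 libraries) and lay above the next gene in 6 of 6 libraries. Next came Kcna2, a voltage-gated subunit known from axons, with 39.6 ± 6.54 CPM per kb, and Kcnc1, the subunit of a channel that closes fast and lets neurons fire at high rates, with 33.9 ± 11.7 CPM per kb. Kcna2 lay above Kcnc1 in 3 of 6 libraries and Kcnc1 above Kcnj16 in 3 of 6, so the order of these neighbours did not hold from library to library. Kcnj16, an inward rectifier subunit of glia, had 31.0 ± 3.35 CPM per kb. Subunits of the transient A-type current followed, Kcnd3 with 29.6 ± 3.02 and Kcnd2 with 22.3 ± 6.88 CPM per kb.

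**Figure D1:**
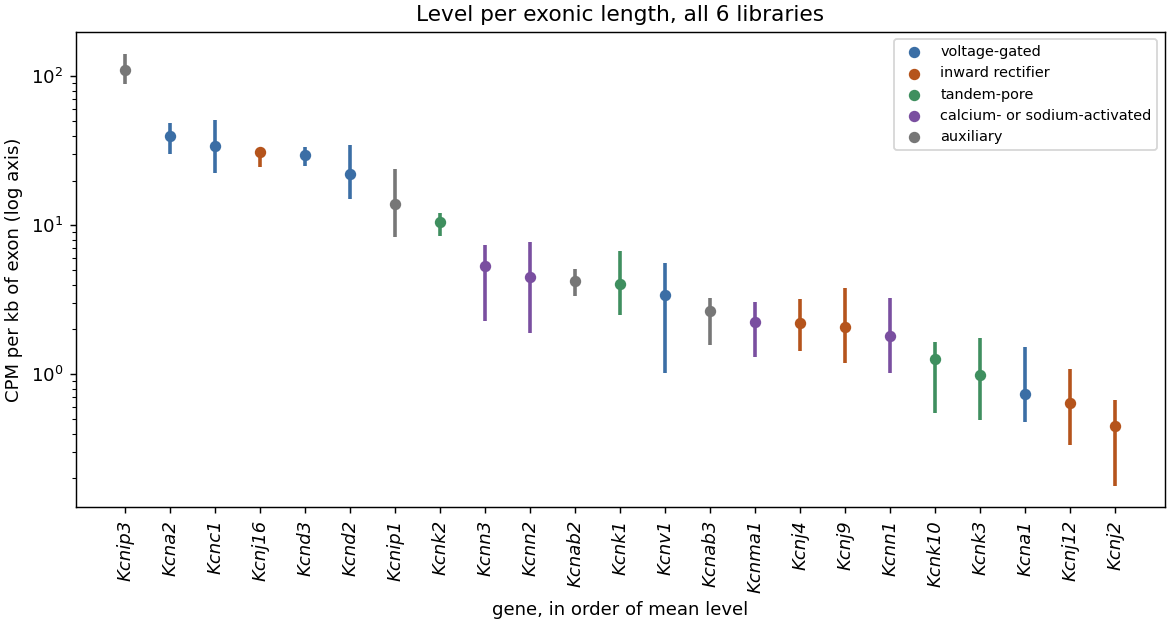
Level of the 23 named potassium channel genes, as CPM per kb of exon on a log axis; points are means over all 6 libraries, lines run from the lowest to the highest library, and colours give the family. Kcnip3 stands apart at 110.8 CPM per kb, and the ranges of the next 5 genes overlap.

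The partners of the Kcnd channels ranged widely in level. Of the relatives of Kcnip3, Kcnip1 had 13.9 ± 5.65 CPM per kb and ranked as number 7, Kcnip2 had 1.72 ± 0.558 and Kcnip4 had 0.524 ± 0.195 CPM per kb. The dipeptidyl-peptidase-like subunits that also join Kcnd channels, which are not Kcn genes, had a mean of 3.92 CPM per kb (Dpp6) and 0.643 CPM per kb (Dpp10). The inward rectifiers other than Kcnj16 were low: the next were Kcnj4 with 2.21 ± 0.731 CPM per kb and Kcnj9 with 2.07 ± 1.08 CPM per kb. Among tandem-pore channels the mechanosensitive Kcnk2 led with 10.5 ± 1.63 CPM per kb.

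The promoters of 3 genes with overlapping levels per kb are shown because they differ in base composition. Each is the 250 bases before the RefSeq start site (GRCm38.p6), 5′ to 3′ on the gene's strand, and capitals mark any of 4 motifs searched on both strands: the GC box (GGGCGG), the CCAAT box (CCAAT), the TATA box (TATAAA) and the cyclic AMP response element (TGACGTCA). The capitals seen are all GC boxes, and none overlaps another motif. The windows are chr7:46396218-46396467 (plus strand) for Kcnc1, chr3:107101317-107101566 (plus strand) for Kcna2 and chr11:110967783-110968032 (plus strand) for Kcnj16.
Kcnc1: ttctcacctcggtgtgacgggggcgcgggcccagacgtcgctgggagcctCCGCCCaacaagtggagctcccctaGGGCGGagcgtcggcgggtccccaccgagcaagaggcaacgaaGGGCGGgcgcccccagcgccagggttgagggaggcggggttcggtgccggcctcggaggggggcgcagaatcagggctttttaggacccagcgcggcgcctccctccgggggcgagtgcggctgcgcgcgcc
Kcna2: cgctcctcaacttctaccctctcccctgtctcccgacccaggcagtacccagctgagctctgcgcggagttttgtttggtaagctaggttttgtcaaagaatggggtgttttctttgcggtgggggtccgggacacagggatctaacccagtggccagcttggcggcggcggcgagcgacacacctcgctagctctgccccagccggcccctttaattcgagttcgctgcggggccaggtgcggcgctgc
Kcnj16: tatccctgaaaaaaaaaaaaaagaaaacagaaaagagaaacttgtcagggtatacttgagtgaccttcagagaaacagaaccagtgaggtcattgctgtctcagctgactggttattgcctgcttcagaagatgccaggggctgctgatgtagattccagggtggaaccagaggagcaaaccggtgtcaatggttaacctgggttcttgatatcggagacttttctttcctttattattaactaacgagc

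The Kcnc1 window held 30 CpG dinucleotides, 74.4% G or C and 3 GC boxes. The Kcna2 window held 18 CpG and none of the 4 motifs, and the Kcnj16 window 3 CpG with 42.8% G or C and none of them. These 3 genes were picked for overlapping levels per kb and differing base composition, so that contrast is not a result. The Kcna2 window lies inside the Kcna2 gene of the count table, whose start is 421 bases before the RefSeq start site. RefSeq gave a start site within 500 bases of the table's gene start for 56 of the 84 genes. Over the 32 of these that passed the filter on low counts the median was 12 CpG, against 16 over 8878 protein-coding genes that passed it. Over the 24 that did not pass it the median was 8, against 5 over 2371 protein-coding genes. Over all windows, passed or not, the GC box was found in 48.2% of the channel genes and 55.5% of protein-coding genes, and the CCAAT box in 26.8% and 36.2%. The TATA box was found in 3.57% and 7.09%, and the response element in 0 channel genes and 2.59% of protein-coding genes. A match is a description of letters, not a bound site.

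The comparison asked how the level of each channel gene differed between the groups. Of the 84 genes, 53 passed the filter on low counts and 31 did not. The latter held between 1 and 58 counts over all 6 libraries, 16 of them at most 10, with a highest mean of 0.547 CPM. These 31 were left out of the main test. A fit with no filter, which took in all 84, had 5 at an unadjusted p under 0.05 and 7 without overlap between groups, and edgeR called 0 of them. By edgeR 0 of the 53 tested genes passed an adjusted p under 0.05, and 0% of all 15087 genes tested did, so edgeR gives no call here for any gene. DESeq2 on the group alone also called 0 of the 53, against 0.0464% of all genes, as did limma-voom, against 0%.

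Among the 53 tested, 31 were lower and 22 higher in the labelled-knockout libraries, where 50.0% of all genes were lower. The median log2 fold change was -0.10, against 6.6e-05 over all genes tested. It was -0.059 without control replicate 3 and -0.24 without labelled-knockout library 2. The median deviation of the channel genes from the control mean was -0.054, 0.042 and 0.066 in controls and -0.098, 0.017 and -0.46 in the labelled-knockout libraries, with an SD between replicates of 0.182. Each was lower than the control of the same number, and in the first and second pair by less than that SD. Labelled-knockout library 3 thus stood apart, with the lowest level of all 6 libraries in 17 of the 53 genes and the highest in 2. That library also had the highest summed astrocyte markers, 21180 CPM against 3438 to 13560 CPM in controls and 9016 and 9160 CPM in the other libraries labelled knockout. It had the lowest summed proliferation markers too, 396 CPM against 830 to 2330 CPM in controls and 557 and 1472 CPM in the others. The lower level was not confined to that library. All 6 proliferation markers were lower in all 3 same-numbered pairs (18.0% of all genes were so), with a median log2 fold change of -0.91. By edgeR 0 of the 6 reached an unadjusted p under 0.05, and DESeq2 with the block called 6 lower, against 2.09% of all genes. Of 12 tested oligodendrocyte lineage markers, 9 were higher and 3 lower in the labelled-knockout libraries, with a median log2 fold change of 1.2. Of these, 6 were higher and 2 lower at an unadjusted p under 0.05 by edgeR, and DESeq2 with the block called 7 higher and 2 lower. Their summed level was 3423 to 4532 CPM in controls and 3371 to 3432 CPM in the labelled-knockout libraries. The part of cell composition in the channel levels was not tested. In bulk libraries, fewer cells of a type and less RNA per cell cannot be told apart.

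**Figure D2:**
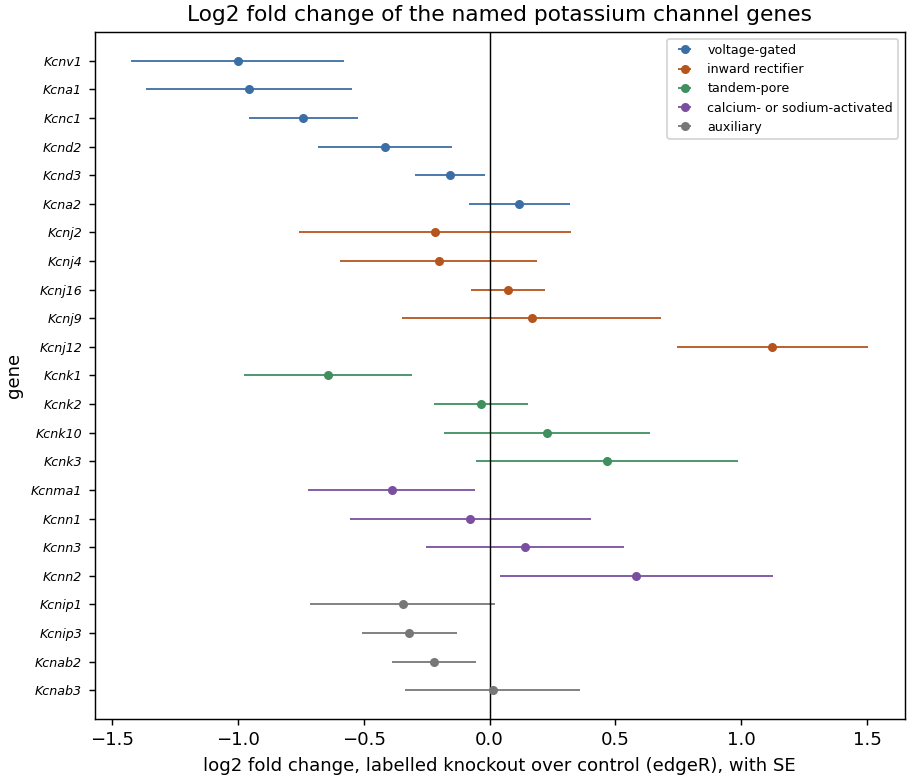
Log2 fold change (labelled knockout over control, edgeR) of the 23 named potassium channel genes, ordered by family and value; points are estimates, bars SE, and the line marks 0. They run from -1.001 (Kcnv1) to 1.12 (Kcnj12).

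At an unadjusted p under 0.05 stood 4 of the 53 genes, 7.55% of them, against 3.47% of all genes tested. They were Kcnc1, Kcnv1 and Kcna1, lower in the labelled-knockout libraries (1.5% of all genes were so called), and Kcnj12, higher (1.98% of all genes). The count was 2 without control replicate 3, against 5.1% of all genes, and 8 without labelled-knockout library 2, against 6.59%. Without labelled-knockout library 3 it was 1, Kcnc1, against 2.39%. Groups did not overlap in 6 genes, against 8.6% of all genes. The 4 lower ones included Kcnc1, Kcnv1 and Kcna1 (3.73% of all genes), and higher were Kcnj12 and Kcnu1 (4.88% of all genes). That count was 11, 10 and 16 without control replicate 1, control replicate 2 and labelled-knockout library 2. The same share over all genes was not taken for these, and fewer libraries overlap less often by construction.

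Titles give the same replicate numbers to both groups, and same-numbered libraries deviated together across genes. In a fit blocked on that number, edgeR called 0 of the 53 genes (0% of all genes), and 9 stood at an unadjusted p under 0.05, against 12.5% of all genes. The 3 higher ones included Kcnu1 and Kcnj12 (5.69% of all genes), and the 6 lower ones Kcnv1, Kcna4, Kcnmb4, Kcnc1 and Kcnd2 (6.77% of all genes). DESeq2 with the block called 2 of the 53, Kcnc1 and Kcnv1, both lower, against 3.09% of all genes, with 2.09% of all genes called lower and 0.994% called higher. Some tested channel genes of low counts, Kcna4 and Kcnmb4 among them, got no adjusted p from that fit and could not be called. Genes without an adjusted p count as not called in these shares. Of the 53, 11 were lower in all 3 pairs and 4 higher, where each share over all genes was 18.0%.

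Among the voltage-gated subunits, Kcnc1 had the lowest unadjusted p of the 53 channel genes by edgeR without the block. With the block, the edgeR unadjusted p was lower for Kcnd2 (0.00333) and Kcnv1 (0.00423) than for Kcnc1 (0.00566). Kcnc1 (ENSMUSG00000058975) lies on chromosome 7 from 46396497 to 46438704, plus strand, in mm10, with no overlapping gene in the count table. Its level was 431, 290.2 and 484 CPM in control replicates 1 to 3 and 277, 230.0 and 214 CPM in the labelled-knockout libraries 1 to 3. Each library labelled knockout lay below each control, and the nearest were control replicate 2 and labelled-knockout library 1. This was 402 ± 100.1 CPM in controls and 240.3 ± 32.9 CPM in the others (SD, n = 3 each). The log2 fold change was -0.74 ± 0.22 (SE). By edgeR the unadjusted p was 0.0104 and the adjusted p 0.998, and by DESeq2 with the block the adjusted p was 0.00555.

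The Kcnc1 difference kept its sign under the other settings, while its size varied. Over 16 alternatives the log2 fold change ran from -1.03 to -0.58 and the unadjusted p from 0.000103 to 0.0390. Adding the Y-linked covariate gave -1.03 (unadjusted p = 0.000854), and against control replicate 3 alone -1.01. In the authors' deposited table the log2 ratio of control over knockout for Kcnc1 is 0.74, with an adjusted p of 0.563. Its relative Kcnc4 reached 23.7 CPM in control replicate 3 and lay between 5.04 and 15.5 CPM in the other libraries.

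Kcnv1 encodes an electrically silent subunit that joins other voltage-gated subunits and alters their gating. Kcnv1 (ENSMUSG00000022342) lies on chromosome 15 from 45106284 to 45114920, minus strand. It stood at 19.9, 25.7 and 17.3 CPM in controls and 10.5, 16.3 and 4.70 CPM in the labelled-knockout libraries, so the groups lay just apart. The log2 fold change was -1.001 ± 0.42 by edgeR (unadjusted p = 0.0485, adjusted p = 0.998). With the block it was -1.13 ± 0.25 by edgeR (adjusted p = 0.171), and by DESeq2 -1.14 ± 0.29 (adjusted p = 0.00482). Kcnv1 was lower in each same-numbered pair, by -0.92, -0.66 and -1.85 on the log2 scale. The unadjusted p of Kcnv1 passed 0.05 in 8 of 16 alternatives. By edgeR the log2 fold change was -0.74 with the Y-linked covariate (unadjusted p = 0.198) and -0.72 against control replicate 3 alone (unadjusted p = 0.304). It was -1.12 without control replicate 3 (unadjusted p = 0.0564) and -0.65 without labelled-knockout library 3 (unadjusted p = 0.0565). In each group its highest level was in the replicate numbered 2 and its lowest in that numbered 3, the same order as the proliferation markers (1251, 2330 and 830 CPM in controls, 557, 1472 and 396 CPM in the others). The part of proliferation in the Kcnv1 level was not tested.

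**Figure D3:**
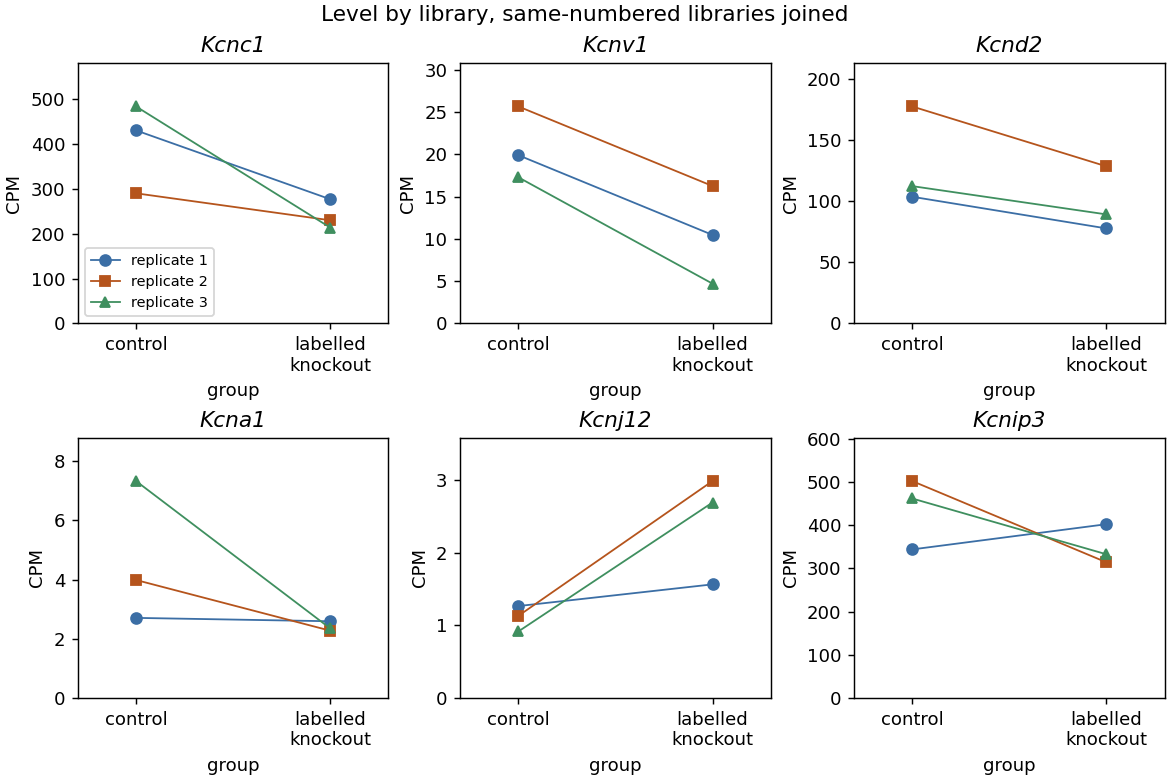
CPM of 6 potassium channel genes in each library; lines join libraries with the same replicate number, and each y axis starts at 0. All 3 lines fall for Kcnc1, Kcnv1, Kcnd2 and Kcna1, where control replicate 3 reaches 7.33 CPM. Lines for Kcnj12 rise, and those for Kcnip3 run in both directions.

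Kcna1, a subunit of low-threshold axonal channels, was low throughout. It stood at 2.70, 3.98 and 7.33 CPM in controls and 2.59, 2.27 and 2.35 CPM in the labelled-knockout libraries. The groups did not overlap, but control replicate 1 lay close to labelled-knockout library 1, and control replicate 3 stood well above the rest. Its log2 fold change was -0.96 ± 0.41 (unadjusted p = 0.04999, adjusted p = 0.998 by edgeR), and without control replicate 3 it was -0.47 (unadjusted p = 0.221). Its abundant relative Kcna2 stood at 535, 358 and 464 CPM in controls and 580.1, 433 and 460.5 CPM in the others. The groups overlapped widely, with a log2 fold change of 0.12 ± 0.20 (unadjusted p = 0.573).

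Of the A-type subunits, Kcnd2 was lower in every same-numbered pair and Kcnd3 in 2 of 3. Kcnd1, the rarest of them at a mean of 5.01 CPM, went the other way, with a log2 fold change of 0.24 ± 0.44 (unadjusted p = 0.601 by edgeR). Kcnd2 stood at 104, 177 and 112 CPM in controls and 77.7, 128 and 89.2 CPM in the labelled-knockout libraries. The groups overlapped, but each pair was lower, by -0.41, -0.47 and -0.33 on the log2 scale. Without the block the log2 fold change was -0.41 ± 0.27 (unadjusted p = 0.163), and with the block by edgeR -0.40 ± 0.087 (unadjusted p = 0.00333, adjusted p = 0.155). With the Y-linked covariate the Kcnd2 value was -0.063 (unadjusted p = 0.818) and against control replicate 3 alone -0.19 (unadjusted p = 0.561). Kcnd3 stood at 300 ± 27.7 CPM in controls and 269 ± 24.6 CPM in the others, a log2 fold change of -0.16 ± 0.14. Kcnd3 shares its locus with the antisense gene Kcnd3os, at 4.26 CPM against 284 CPM.

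Kcnq3, a subunit of the M-current that restrains firing, lay at 25.7, 33.5 and 30.6 CPM in controls and 16.6, 34.7 and 21.8 CPM in the others, with a log2 fold change of -0.30 ± 0.28. Over the voltage-gated family, 25 of 38 genes were tested, 15 of them lower and 10 higher, with a median of -0.11.

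Among inward rectifiers 7 of 13 genes were tested, 4 lower and 3 higher, with a median of -0.17. Kcnj12, a strong inward rectifier, was higher in the labelled-knockout libraries at a low level: its counts were 22, 21 and 16 in controls and 29, 50 and 47 in the others. In CPM this was 1.10 ± 0.176 and 2.42 ± 0.752 (SD, n = 3 each). The log2 fold change was 1.12 ± 0.38 (unadjusted p = 0.0201, adjusted p = 0.998 by edgeR). Counting error is a large part of such values. Kcnj12 lies on chromosome 11 from 61022564 to 61071131, plus strand. Kcnj16 differed little, at 130.1, 96.5 and 130 CPM in controls and 130.5, 119 and 125 CPM in the others. Its log2 fold change was 0.074 ± 0.15, while the median over 10 astrocyte markers was 0.69 with 10 of 10 higher. Kcnj8, a marker of mural cells in brain, had at most 2 counts in a library. The remaining named rectifiers overlapped between groups, Kcnj9 with a log2 fold change of 0.17 ± 0.52, Kcnj4 with -0.20 ± 0.39 and Kcnj2 with -0.22 ± 0.54.

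Tandem-pore channels, the source of background potassium leak, were tested in 7 of 13 genes, 5 lower and 2 higher. Kcnk2 stood at 55.3, 42.2 and 59.8 CPM in controls and 52.1, 41.9 and 59.4 CPM in the labelled-knockout libraries. The values of its same-numbered libraries lay side by side, with a log2 fold change of -0.035 ± 0.19. A processed pseudogene, Pdcd5-ps, lies within Kcnk2 on the same strand, at 15.7 CPM against 51.8 CPM. Kcnk1 stood at 11.0, 7.16 and 14.9 CPM in controls and 5.56, 9.15 and 6.48 CPM in the others, a log2 fold change of -0.64 ± 0.33 (unadjusted p = 0.0935), with overlap. Kcnk10, a relative of Kcnk2, and the acid-sensitive Kcnk3 had log2 fold changes of 0.23 ± 0.41 and 0.47 ± 0.52.

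Calcium- or sodium-activated channels were tested in 6 of 8 genes, 4 higher and 2 lower, with a median of 0.19. The small-conductance channels varied between libraries more than between groups. Kcnn2 stood at 20.2, 18.0 and 42.5 CPM in controls and 14.2, 48.7 and 58.0 CPM in the labelled-knockout libraries, so both the lowest and the highest value fell in the latter. Kcnn3 lay between 23.7 and 76.8 CPM in controls and between 46.3 and 68.6 CPM in the others, and Kcnn1 between 4.68 and 14.8 and between 5.45 and 10.6 CPM. The large-conductance Kcnma1, opened by calcium and voltage, had 52.0, 28.2 and 49.5 CPM in controls and 46.9, 29.8 and 22.3 CPM in the others, a log2 fold change of -0.39 ± 0.33. Kcnu1, a pH-sensitive relative known from sperm, had 19, 32 and 29 counts in controls and 35, 51 and 44 in the others, apart after scaling (log2 fold change 0.73 ± 0.36, unadjusted p = 0.0767).

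Auxiliary subunits were tested in 8 of 12 genes, 5 lower and 3 higher, with a median of -0.21. Kcnip3 stood at 344, 502 and 462 CPM in controls and 402, 314 and 333 CPM in the labelled-knockout libraries. Only control replicate 1 fell among the latter, and the log2 fold change was -0.32 ± 0.19 (unadjusted p = 0.134). Kcnip1 lay at 148, 64.4 and 76.1 CPM in controls and 103, 72.1 and 51.9 CPM in the others, with overlap. Of the subunits that bind Kcna channels, Kcnab2 had a log2 fold change of -0.22 ± 0.17 and Kcnab3 of 0.013 ± 0.35. Kcnab2 overlaps Nphp4 on the opposite strand (12.2 CPM against 23.4 CPM), and the sources used here do not state whether counting used strand, so reads of such a pair cannot be told apart.

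**Figure D4:**
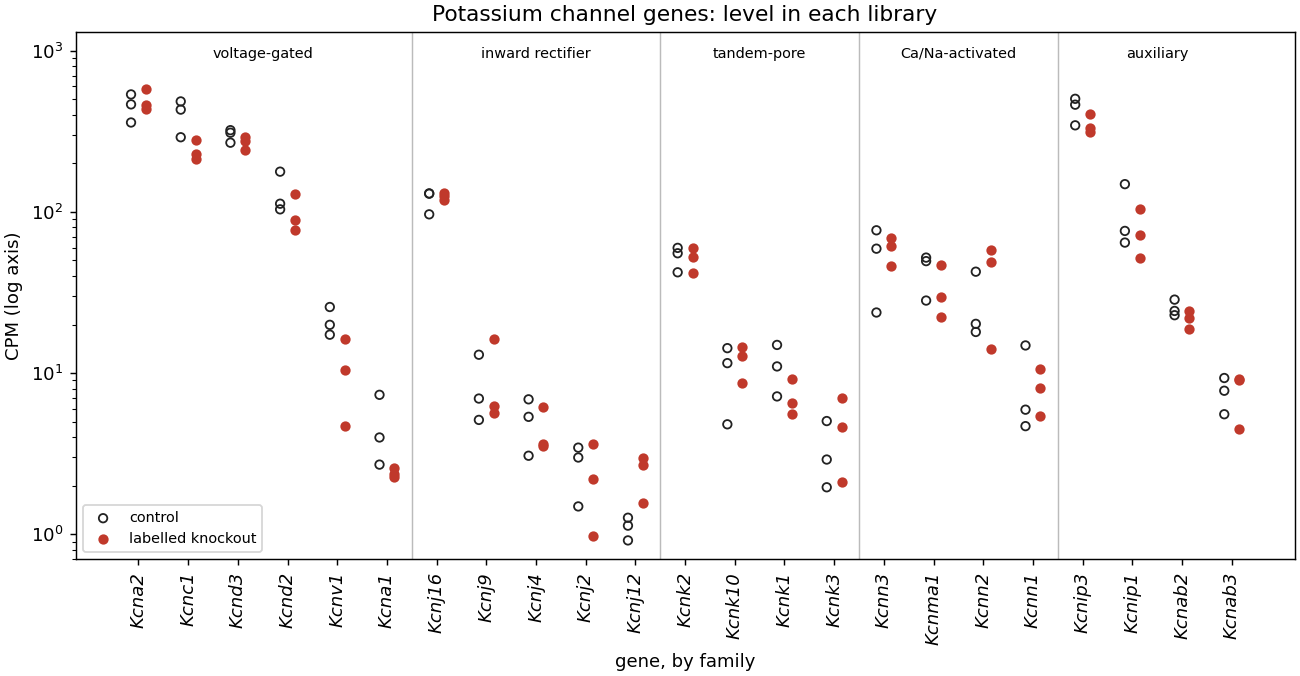
CPM on a log axis of the 23 named potassium channel genes, grouped by family; open points are the 3 controls and filled points the 3 libraries labelled knockout. The groups lie apart for Kcnc1, Kcnv1, Kcna1 and Kcnj12 and overlap for the other 19.

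In a pair of rarer channels, picked after their values were seen, 1 library stood above the rest of its group. Kcng1, a silent subunit, stood at 2.19, 2.64 and 2.75 CPM in controls, and at 0.593, 5.86 and 0.573 CPM in the labelled-knockout libraries, where the second library was far above the others. Kcnt2 had 3, 8 and 32 counts in controls and 3, 0 and 12 in the others and did not pass the filter. A fold change past 1.5 in either direction was seen in 11 of the 53 tested genes, against 11.0% of all genes. At a mean of at least 10 CPM it was 5 of 24, against 5.41% of 9994 genes, and below that 6 of 29, against 21.9% of 5093 genes.

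Other genes of potassium handling were compared from lists of partner proteins, pumps and transporters. Of 7 tested partner proteins outside the Kcn names, 6 were lower and 1 higher, and 0 reached an unadjusted p under 0.05 by edgeR. Dpp6, the most abundant, had a log2 fold change of -0.045. Of 7 tested sodium-potassium ATPase subunits, 4 were lower, 3 higher and 0 reached it. Atp1b2, a beta subunit and the most abundant of the list, had a log2 fold change of 0.12. Of 5 tested cotransporters of potassium and chloride, 1 of which also carries sodium, 4 were lower and 1 higher. Slc12a5, the neuronal chloride extruder, was lower without overlap, at 6.05 CPM in controls against 3.03 CPM. Its log2 fold change was -0.996 (unadjusted p = 0.00655 and adjusted p = 0.998 by edgeR). DESeq2 with the block did not call Slc12a5 either (adjusted p = 0.101). The abundant Slc12a4 had a log2 fold change of -0.11. Of 2 tested HCN channels, which pass sodium and potassium, both had log2 fold changes near 0 (0.020 for Hcn2 and 0.023 for Hcn3).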

How the data were processed

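The authors deposited raw whole-number counts per gene for 6 libraries and, per the file headers, their own log2 ratio of control over knockout and adjusted p-value for each gene. The submitters' processing notes list HISAT2 2.1.0, Bowtie2 2.2.3 and the build mm10, with no roles. The counter, strand setting and annotation are not stated in them. Libraries were made with the NEBNext Ultra RNA kit from 2 µg of RNA, per the labels' protocols. A line without a gene name (1) was left out.

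All genes were fitted together with edgeR 4.0.16 in R 4.3.3: filterByExpr (minimum count 10, minimum total 15), TMM, robust glmQLFit and glmQLFTest on the group, with Benjamini-Hochberg adjustment over 15087 genes at 0.05. As a check of the code, the test was also run on simulated counts drawn as independent libraries. These lacked the shared deviations of same-numbered libraries, so the run does not check the test under them. SE came from the F statistic. Exon lengths are from GENCODE M21, which held all 84 gene IDs. Alternatives were DESeq2 1.42.0, limma-voom (limma 3.58.1), other scalings and filters, the replicate block, a Y-linked covariate, control replicate 3 alone and each library left out. In the comparison with control replicate 3 the single control was taken to vary as much as the other group does.

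After subtraction of group means, the correlation across genes was 0.435, 0.346 and 0.508 for libraries of the same number. It was below 0 for the other pairings, which the subtraction itself forces in part. The labels state no pairing. The numbers from the titles were taken as a pairing from these same data, so the blocked fits rest on that choice. No 2 libraries agreed within sampling noise (chi-square per degree of freedom of at least 19.4).

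Members and lists were chosen with earlier results of these data known. Named were Sirt6, in each family up to 4 tested genes with the highest mean CPM, every gene with an edgeR unadjusted p under 0.05 or a DESeq2 call, and from each related list such genes and the most abundant one. Kcnc4, Kcnd1, Kcnq3, Kcnu1, Kcng1, Kcnt2, Kcna4, Kcnmb4, Kcnj8, Kcnip2, Kcnip4, Dpp10 and Hcn2 were picked with their values already seen. Some genes are not reported by name here, though counts include them.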

Additional observations from a re-analysis of the deposited data

How the results depend on the processing

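The median log2 fold change of the channel genes stayed negative under all 16 alternatives, from -0.24 to -0.059, both ends from leaving out a library. The number of channel genes called was 0 in each alternative but DESeq2 with the replicate block, where it was 2 (Kcnc1 and Kcnv1). The block changed no other call of a channel gene. Genes at an unadjusted p under 0.05 numbered 9 with the replicate block, against 12.5% of all genes. They numbered 2 with the filter of 1 CPM in 3 libraries, against 3.48%. With a library left out they numbered 1 to 8, against 2.39% to 6.59%. Genes without overlap numbered 31 against control replicate 3 alone and 8 to 16 with a library left out, where fewer libraries overlap less often by construction. Kcnc1, Kcnv1, Kcna1, Kcnj12, Kcnd2, Kcnd3, Kcnk1, Kcnma1, Kcnip3 and Kcnab2 kept their direction in all 16 alternatives, but not their size. With a library left out, Kcnd2 ran from -0.65 to -0.13, Kcnma1 from -0.73 to -0.17, Kcnk1 from -0.88 to -0.36 and Kcnk3 from 0.027 to 0.91. The nearest to 0 came without control replicate 2 for Kcnd2, control replicate 3 for Kcnk1, labelled-knockout library 3 for Kcnma1 and labelled-knockout library 1 for Kcnk3.

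Other named genes changed sign, each uncalled, and the cause was not tested. With the Y-linked covariate the log2 fold change was -0.067 for Kcna2, -0.11 for Kcnj16, -0.10 for Kcnj9, 0.26 for Kcnj2 and -0.44 for Kcnn3. Against control replicate 3 alone it was -0.053 for Kcnj16, -0.47 for Kcnj9, 0.61 for Kcnj2, -0.14 for Kcnk3, -0.39 for Kcnn3 and -0.078 for Kcnn2. For Kcnn1 it was 0.061 by limma-voom and 0.044 with the block by edgeR or DESeq2, and for Kcnab3 -0.029, -0.021 and -0.024. With a library left out, Kcna2 ran from -0.024 to 0.26, Kcnj16 from -0.055 to 0.15, Kcnj9 from -0.48 to 0.64, Kcnj4 from -0.51 to 0.077, Kcnj2 from -0.72 to 0.15, Kcnk2 from -0.17 to 0.094, Kcnk10 from -0.10 to 0.55, Kcnn3 from -0.21 to 0.51, Kcnn1 from -0.37 to 0.60, Kcnip1 from -0.63 to 0.11 and Kcnab3 from -0.16 to 0.28. At 3 libraries a group, genes near 1 CPM rest on 17 to 19 counts and carry counting error as well.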

Other observations

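The pore-forming subunits of voltage-gated sodium and calcium channels, the partners of potassium channels in electrical signalling, were also expressed. Of 13 tested, 9 were lower and 4 higher in the labelled-knockout libraries, with a median log2 fold change of -0.089. Scn8a was the most abundant, at a mean of 131 CPM, with a log2 fold change of -0.012. Cacna1g, a low-threshold calcium channel, stood at 9.11 CPM on average in controls against 3.97 CPM (log2 fold change -1.20, unadjusted p = 0.0177 by edgeR, adjusted p = 0.0242 by DESeq2 with the replicate block).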
